A study of Mus musculus with 5 samples.

Results

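The interferon-gamma (IFN-γ) inducible GTPases examined here were 10 genes: the guanylate-binding protein genes Gbp2, Gbp3, Gbp4, Gbp5, Gbp6, Gbp7, Gbp8 and Gbp9, and the immunity-related GTPase genes Igtp and Irgm1. They were chosen from genes of these families with earlier results of these data known. Relatives such as Gbp2b, Gbp10 and Irgm2 were kept in a separate list. All 10 were present among the 31950 gene identifiers shared by every library. IFN-γ binds its receptor on the target cell, the receptor-bound kinases JAK1 and JAK2 pass the signal on, and the factor IRF1 takes part in switching on the genes of this family. The encoded GTPases assemble on the vacuoles of intracellular microbes and on bacterial surfaces, where they break up the membrane or recruit autophagy and inflammasome proteins. Because macrophages, stromal cells and tumor cells all carry the IFN-γ receptor, transcripts of the family are widely used as a readout of IFN-γ exposure, and type I interferons can induce several of them as well.

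The libraries came from male WT C57BL/6J mice aged 8 to 10 weeks that carried subcutaneous grafts, either of TRAMP-C2, a prostate tumor line whose tumor-draining lymph nodes (TDLNs) were profiled in 3 reactions, or of MC38, a colon carcinoma line whose tumors were profiled in 2 reactions. Every mouse received antibody intraperitoneally on days 3, 6 and 9, either isotype control or dual checkpoint inhibition (CPI, anti-CTLA4 with anti–PD-1). On day 12 came vehicle (DPBS) or 20 mg/kg of ABT-317, a JAK1-selective inhibitor, and tissue was taken on day 15. The methods count days from implantation. A figure legend of the paper instead counts MC38 days from enrollment, when tumors had reached a set volume. The 4 MC38 groups were thus isotype, isotype + ABT-317, CPI and CPI + ABT-317, each carried by 1 hashtag antibody in each reaction. Hashtags could not divide the TDLN barcodes by treatment, so the TDLN values cover all treatments together. MC38 suspensions were sorted into CD45+ and CD45– live cells and remixed 1:1 before loading, which sets the share of immune barcodes. Reactions are the samples of the TDLN class tests and of the treatment tests, and the hashtag key ties no hashtag to a single mouse. Those p-values therefore measure the spread between 2 or 3 reactions, which may be technical. The MC38 class tests took each treatment sum of a reaction as a sample, without a reaction term. Their p-values thus also take in how a class varied between treatments.

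After filtering (at least 200 genes and under 10% mitochondrial UMIs), the TDLN reactions held 62571, 56509 and 7050 barcodes and the MC38 reactions 33762 and 23332. Before filtering, any pair of reactions shared 271 to 4842 barcode sequences. Barcodes were placed in classes by marker genes, and 52.1% to 64.3% of TDLN barcodes and 40.7% and 32.5% of MC38 barcodes entered no class. In MC38, the macrophage-like class was led by C1qa, C1qb, C1qc and Mrc1, which are genes of its gate. Its median CD11b antibody count, not part of the gate, was 115 and 136 per barcode against 12 and 11 in the marker-negative class. The class called marker-negative had few or no immune and endothelial markers and carried Rhox5. Its gate set a minimum number of UMIs per barcode. Fibroblast markers were limited in share without being excluded (median 22 and 29 UMIs per barcode under isotype). Its keratins were near 0 (Krt8 at 0.117 CPM and Krt18 at 0), so it is named by its gate and not as tumor epithelium. TDLN CD8 T-like barcodes were led by S100a9 and S100a8, neutrophil genes, next to the gate genes Cd8b1 and Cd8a. CD4 T-like barcodes were gated on Cd4 or on Foxp3, the defining factor of regulatory T cells. Both gate genes were among their leading genes in both tissues. In MC38 the leading genes also held Ikzf2, another gene of regulatory T cells and not part of the gate. Most classed TDLN barcodes (29070, 18735 and 3021 per reaction) carried T and B markers together and were kept apart from the class tests.

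Hashtag treatments differed in more than treatment. In reactions 1 and 2, barcodes with exactly 1 hashtag numbered 9192 and 8415 for isotype and 2613 and 2025 for isotype + ABT-317. They numbered 1916 and 1515 for CPI, and 2143 and 2348 for CPI + ABT-317. Those carrying several hashtags, 16046 and 6996, were set aside from the treatment sums. The CPI hashtag was the faintest, with an upper mode of 54.7 and 37.0 counts against 145.1 to 218.7 for the other hashtags. Among CPI barcodes the fibroblast-like class was the largest (759 and 628, with 710 and 456 in no class), and CD8 T-like barcodes numbered 136 and 153 under CPI against 5 and 4 under isotype, 0 and 0 under isotype + ABT-317 and 1 and 4 under CPI + ABT-317, with 163 and 87 more among those carrying several hashtags. In contrast, CPI + ABT-317 barcodes were mostly marker-negative (1480 and 1392). Macrophage-like barcodes numbered 133 and 116 under CPI and 3385 and 3820 under isotype, and marker-negative barcodes 60 and 45 under CPI and 3079 and 3066 under isotype. Whether these differences come from the treatment or from the hashtag cannot be told apart, and treatment was therefore compared only within the macrophage-like and marker-negative classes, which had at least 10 barcodes in each of the 8 sums.

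The guanylate-binding protein genes lie in a cluster on chromosome 3 (Gbp5, Gbp7, Gbp3 and Gbp2, plus strand) and another on chromosome 5 (Gbp8, Gbp9, Gbp4 and Gbp6, minus strand), in GRCm38 coordinates. Gbp5 spans 142493978 to 142522344, Gbp7 spans 142530342 to 142550149, Gbp3 spans 142560026 to 142573209 and Gbp2 spans 142620602 to 142638008. On chromosome 5, Gbp8 (105014150 to 105139540), Gbp9 (105077630 to 105139539) and Gbp4 (105115767 to 105139586) overlap on the same strand up to their shared 5′ end, and Gbp6 spans 105270702 to 105293698. The immunity-related GTPase genes are both on chromosome 11, Irgm1 at 48861968 to 48871683 on the minus strand and Igtp at 58199556 to 58207591 on the plus strand, the latter overlapping Irgm2. All 10 are annotated as protein coding. Because 5′ reads of overlapping or near-identical copies can be divided or lost in counting, the levels of Gbp4, Gbp8 and Gbp9, of Gbp6 (98.7% identical to Gbp10 over 97.4% of its transcript) and of Igtp are uncertain.

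Promoter windows, 250 bases before to 50 bases after an annotated start, were found in RefSeq (GRCm38.p6) for 6 members, with 7 windows in all. Capitals mark every match to GAAANNGAAA or its reverse complement TTTCNNTTTC, the core of the interferon-stimulated response element, and to TTCNNNGAA, the gamma-activated sequence core. The windows printed are those of members that passed a treatment test below: Gbp7 at chr3:142530086-142530385, Gbp3 at chr3:142559794-142560093, Gbp2 at chr3:142620413-142620712, Igtp at chr11:58199306-58199605, all on the plus strand, and Irgm1 at chr11:48871371-48871670 on the minus strand.
Gbp7: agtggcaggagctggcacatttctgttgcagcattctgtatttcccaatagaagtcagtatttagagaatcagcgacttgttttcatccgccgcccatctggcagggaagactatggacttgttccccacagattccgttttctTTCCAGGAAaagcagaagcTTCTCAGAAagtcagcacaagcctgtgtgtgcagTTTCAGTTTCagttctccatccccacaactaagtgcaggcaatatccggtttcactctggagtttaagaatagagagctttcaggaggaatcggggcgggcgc
Gbp3: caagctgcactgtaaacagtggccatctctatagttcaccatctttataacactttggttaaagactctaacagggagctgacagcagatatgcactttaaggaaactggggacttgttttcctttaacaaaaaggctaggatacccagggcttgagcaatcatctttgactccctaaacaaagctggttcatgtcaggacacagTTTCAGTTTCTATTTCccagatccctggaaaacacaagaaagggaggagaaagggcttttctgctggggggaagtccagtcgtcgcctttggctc
Gbp2: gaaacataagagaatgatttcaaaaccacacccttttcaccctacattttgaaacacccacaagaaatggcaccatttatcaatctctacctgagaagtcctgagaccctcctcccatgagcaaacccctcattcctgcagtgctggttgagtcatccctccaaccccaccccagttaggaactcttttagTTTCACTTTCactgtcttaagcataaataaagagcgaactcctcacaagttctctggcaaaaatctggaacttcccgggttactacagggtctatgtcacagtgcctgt
Igtp: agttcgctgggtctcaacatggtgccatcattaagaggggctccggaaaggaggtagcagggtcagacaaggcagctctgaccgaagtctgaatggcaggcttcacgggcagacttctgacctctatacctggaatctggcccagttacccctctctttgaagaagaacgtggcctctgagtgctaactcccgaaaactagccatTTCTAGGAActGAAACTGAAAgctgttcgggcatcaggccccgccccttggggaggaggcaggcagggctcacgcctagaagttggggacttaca
Irgm1: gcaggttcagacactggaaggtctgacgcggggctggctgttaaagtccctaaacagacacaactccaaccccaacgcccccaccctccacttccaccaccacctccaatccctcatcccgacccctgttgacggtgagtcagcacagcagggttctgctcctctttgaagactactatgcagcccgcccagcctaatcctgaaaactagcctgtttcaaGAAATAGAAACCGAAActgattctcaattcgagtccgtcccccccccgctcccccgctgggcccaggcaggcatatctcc
The response element core was found in 6 of the 7 member windows, at least 1 for each of the 6 genes, against 3.44% of the 32851 windows of all genes. The gamma-activated core was found in 3 member windows (Gbp5, Gbp7 and Igtp), against 8.30% of all windows. In Gbp3 and Irgm1, successive matches overlapped, forming a run of 3 repeats. These are matches of letters, both strands searched, and not measured binding sites.

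Across whole reactions, the summed level of the 10 genes was 231, 262 and 269 counts per 1000000 UMIs (CPM) in TDLN and 288 and 295 CPM in MC38. Intervals given with levels are exact Poisson 95% intervals and cover counting error only. In MC38 classes under isotype, the sum was 276 and 256 CPM in macrophage-like barcodes, 236 and 261 CPM in marker-negative barcodes and 400 and 498 CPM in fibroblast-like barcodes, the last from 29 and 14 barcodes. Under CPI, CD8 T-like barcodes had 305 ± 24.2 CPM (SD, n = 2), CD4 T-like barcodes 309 ± 60.5, endothelial-like barcodes 485 ± 177, fibroblast-like barcodes 134 ± 32.7 and DC-like barcodes 101 ± 29.7, the last from 3 and 8 UMIs. Transcripts of other classes were also counted in these barcodes, such as C1qa at 158 and 114 CPM and Rhox5 at 81.9 and 54.6 CPM in CD8 T-like barcodes under CPI, so a level of this size does not show that the class expressed the family. In fibroblast-like barcodes each isotype value lay above each CPI value (157 and 111 CPM), although the isotype values rest on 61 and 59 UMIs of the family. Markers moved with this difference: Rhox5 was at 144 and 372 CPM under isotype against 43.1 and 18.7 CPM under CPI, and the collagen gene Col1a1 at 15902 and 4274 CPM against 25800.3 and 28338 CPM. With a stricter gate the isotype sums moved apart, to 195 CPM (11 UMIs) in reaction 1 and 645 CPM (12 UMIs of 5 barcodes) in reaction 2. The part of these markers in the difference was not tested.

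**Figure D1:**
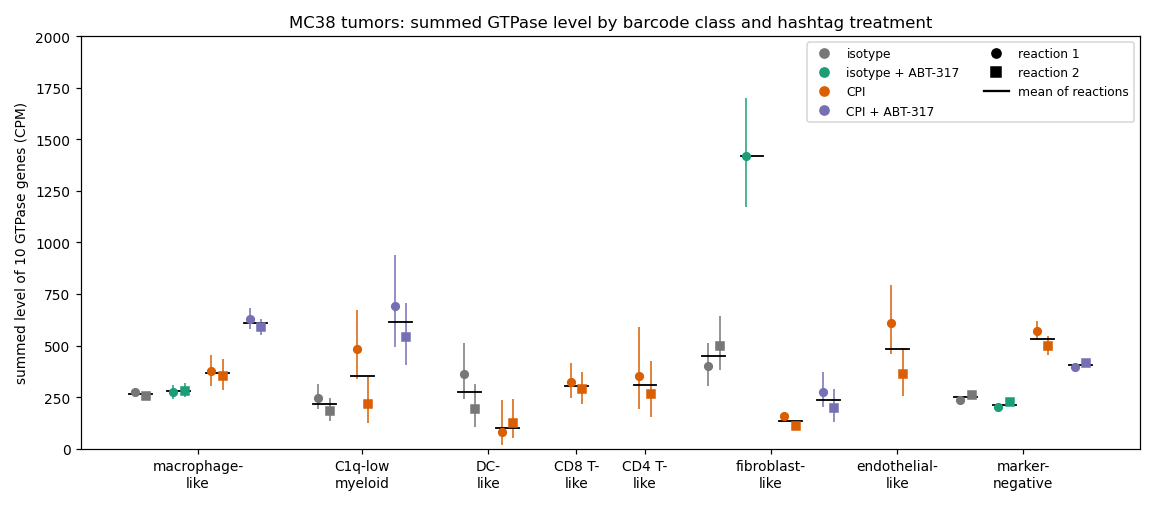
Summed level of the 10 GTPase genes (CPM, y) in each MC38 barcode class (x), colored by hashtag treatment; points are reactions with exact Poisson 95% intervals, black bars are means over reactions, and sums of fewer than 10 barcodes are not drawn. Macrophage-like barcodes were highest under CPI + ABT-317 (630 and 591 CPM), marker-negative barcodes under CPI (571 and 497 CPM), and the single fibroblast-like point at 1418 CPM comes from 11 barcodes.

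Each class was next compared with the mean of the other classes by edgeR's quasi-likelihood test across 8221 genes, with treatment as a covariate and Benjamini-Hochberg adjustment. In MC38, 7 of 80 member-class pairs passed an adjusted p of 0.05, from 5 members. All lay in macrophage-like, marker-negative or fibroblast-like barcodes, where 31.8%, 56.4% and 44.4% of all genes were called. In none of these classes was the share of members called above that of all genes. Gbp5, which drives inflammasome activation in macrophages, was higher in macrophage-like barcodes (log2 fold change 1.30, SE 0.47, adjusted p = 0.028) and lower in marker-negative barcodes (−2.27, SE 0.76, adjusted p = 0.0095). Its levels under isotype were 40.7 and 40.9 CPM in the former and 5.68 and 6.00 CPM in the latter. They did not overlap, which is given without the share of all genes so separated. Over all barcodes with or without a hashtag, it was at 43.7 and 39.9 CPM in macrophage-like, 43.0 and 41.4 CPM in C1q-low myeloid (an unnamed class led by Gzmg, Gzmf and Npy) and 114 and 25.8 CPM in DC-like barcodes (26 and 7 UMIs), so a high Gbp5 level was not particular to macrophage-like barcodes. Gbp4 was also higher in macrophage-like barcodes (1.01, adjusted p = 0.027). Gbp2 (0.98, adjusted p = 0.0064) and Igtp (0.93, adjusted p = 0.013) were higher in marker-negative barcodes. Over all barcodes, endothelial-like barcodes had more Gbp4 (56.8 and 67.99 CPM, 13 and 19 UMIs) than macrophage-like barcodes (21.5 and 17.8 CPM). They also had more Igtp (65.5 and 50.1 CPM, 15 and 14 UMIs) than marker-negative barcodes (30.6 and 35.7 CPM). Neutrophil-like barcodes, outside this fit, had Gbp2 at 219.6 and 259.8 CPM (13 and 4 UMIs) against 104.8 and 115.3 CPM in marker-negative barcodes. A call here thus does not mark the highest class. Fibroblast-like barcodes had less Gbp4 (−2.34, adjusted p = 0.00040) and less Gbp8 (−1.11, adjusted p = 0.048) in the same edgeR fit. With all barcodes of a class, hashtag or not, the fitted fibroblast-like difference of Gbp4 turned to 0.48 and that of Gbp8 was −0.42 without passing. That mean of other classes also held neutrophil-like barcodes (38 and 19), with 0 UMIs of Gbp4. Barcodes with no or several hashtags were added too, and the part of either change was not tested. The Gbp4 level itself stayed lower in fibroblast-like barcodes (10.3 and 8.44 CPM) than in macrophage-like (21.5 and 17.8 CPM) and marker-negative barcodes (16.9 and 17.5 CPM). Leaving out reaction 1 ended the calls of Gbp4 in macrophage-like (1.22), Gbp5 in marker-negative (−0.96) and Gbp8 in fibroblast-like barcodes (−1.42), and leaving out reaction 2 ended those of Gbp4 (0.79) and Gbp5 (0.71) in macrophage-like, Gbp2 (0.90) and Igtp (0.57) in marker-negative and Gbp4 (−1.68) in fibroblast-like barcodes, while Gbp8 could not be fitted there.

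These counts stand against a background in which many genes differed between classes: 31.8% of genes were called in the macrophage-like class, 56.4% in the marker-negative class and 44.4% in the fibroblast-like class. By edgeR no member was called in the classes C1q-low myeloid (17.7% of genes called), DC-like (14%), CD8 T-like (13.8%), CD4 T-like (6.23%) or endothelial-like (15.1%), where DESeq2 called Gbp7; the genes at an unadjusted p under 0.05 in these 5 classes numbered 2221, 2132, 2001, 1396 and 2080. The median difference over the 10 members was 0.74 in macrophage-like and 0.48 in marker-negative barcodes, against 0.24 and 0.31 over all genes. Scaling by library size alone brought the all-gene medians to 0.0035 and 0.065, and under it none of the 4 pairs called higher passed, so the class differences of Gbp2, Igtp, Gbp4 and Gbp5 toward higher levels depend on the scaling; the sign of each of these 4 was kept. Macrophage-like membership also has a soft edge, since raising its marker cuts by 25% dropped 427 of 6548 and 228 of 5999 barcodes and lowering them added 491 and 305.

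In TDLN, 9 members passed the count filter (Gbp3 did not), and 6 of 27 member-class pairs passed the same edgeR test over 7943 genes. B-like barcodes were lower for 5 members, where 18.9% of all genes were called higher or lower. Igtp, an immunity-related GTPase required for resistance to intracellular parasites, was at 15.0 and 8.95 CPM in B-like barcodes of reactions 1 and 2 and at 54.9 CPM, a single UMI, in the 11 of reaction 3. It was at 40.5, 47.3 and 52.4 CPM in CD8 T-like barcodes of reactions 1, 2 and 3, and at 63.3 and 66.8 CPM in CD4 T-like barcodes. In reactions 1 and 2 Igtp ran from B-like to CD8 T-like to CD4 T-like without overlap, whereas the B-like value of reaction 3 lay above all CD8 T-like values. This order rests on 18 and 9 UMIs of Igtp in B-like and 12 and 25 in CD4 T-like barcodes. The share of all genes so ordered is not given, so it is descriptive only. It was lower in B-like barcodes (−2.15, SE 0.32, adjusted p = 9.9e-06) and higher in CD4 T-like barcodes (1.40, SE 0.33, adjusted p = 0.013). Gbp7 was at 6.68, 7.95 and 54.9 CPM in B-like barcodes, the last again 1 UMI, at 21.3, 29.5 and 22.5 CPM in CD8 T-like and at 47.5 and 34.7 CPM in CD4 T-like barcodes. Its B-like difference was −2.09 (SE 0.39, adjusted p = 0.00023), and Gbp6 (−1.45), Gbp8 (−1.42) and Gbp4 (−1.28) were lower as well. The TDLN classes had softer edges than the macrophage-like class: raising the marker cuts by 25% dropped 241 of 605, 166 of 561 and 8 of 11 B-like barcodes in reactions 1, 2 and 3, 64 of 250, 209 of 768 and 11 of 37 CD8 T-like barcodes, and 15 of 57 and 35 of 133 CD4 T-like barcodes in reactions 1 and 2.

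Among TDLN genes as a whole, 18.9% were called in B-like, 3.46% in CD4 T-like and 4.6% in CD8 T-like barcodes, the last with no member called by edgeR without a reaction term (1242 genes at an unadjusted p under 0.05), while DESeq2 gave no adjusted p for any of its 9 members tested. With reaction as a block, 10 pairs of 7 members passed, adding Gbp7 in CD4 T-like barcodes (1.38, adjusted p = 0.031) and Gbp2 (1.08), Gbp8 (0.85) and Gbp5 (−1.43) in CD8 T-like barcodes; that fit called 24.6% of genes in B-like, 6.67% in CD4 T-like and 10.6% in CD8 T-like barcodes. The third reaction held 11 B-like barcodes with 5 UMIs of the family, and leaving out reaction 2 left 1 called pair of 18 that could be tested. DESeq2 called 1 of the 27 pairs, given here without its share of all genes.

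**Figure D2:**
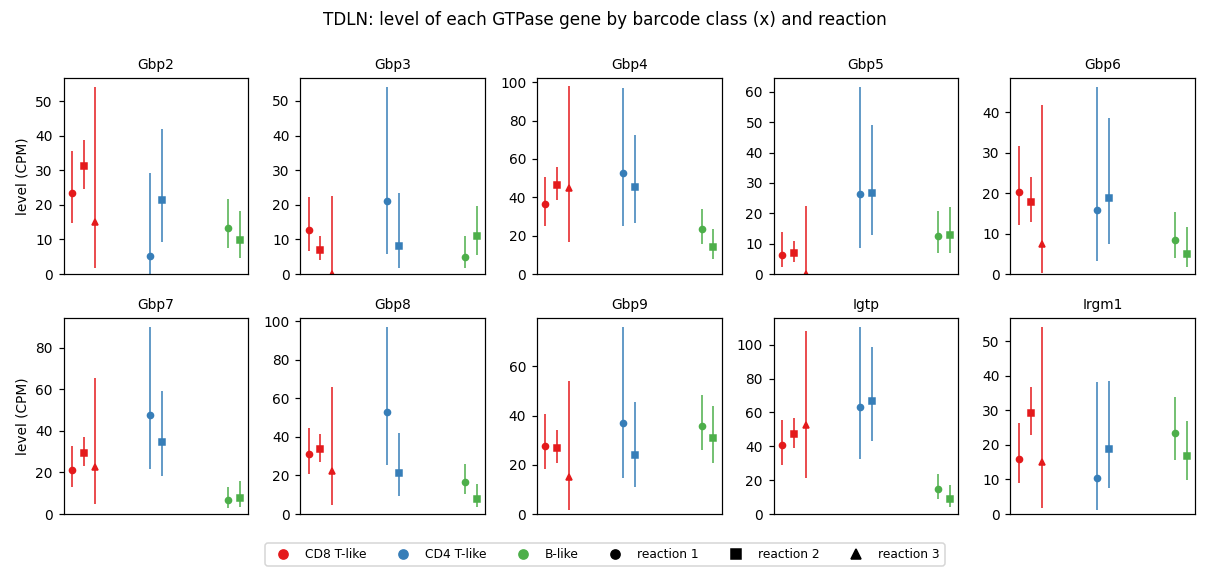
Level of each GTPase gene (CPM, y) in TDLN CD8 T-like, CD4 T-like and B-like barcodes (colors), with reaction by symbol and exact Poisson 95% intervals; sums under 10 barcodes and the 11-barcode B-like sum of reaction 3 are not drawn. In reactions 1 and 2 Igtp lies at 8.95 to 15.0 CPM in B-like barcodes (54.9 CPM, on 1 UMI, in the sum not drawn), below the 40.5 to 66.8 CPM of T-like barcodes. The share of all genes so separated is not given.

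The comparison of CPI with isotype asked how far checkpoint antibodies alone moved the family by day 15. In marker-negative barcodes all 10 members had higher fitted levels under CPI, 7 of them past the edgeR test, with a median log2 fold change of 0.96 against −0.069 over all 14996 genes tested, of which 7.09% were called. By level within a reaction, 9 members were higher under CPI in both reactions and 1 was mixed, given without the share of all genes. The summed level was 249 ± 17.5 CPM under isotype and 534 ± 52.03 CPM under CPI (SD, n = 2). Igtp was at 23.5 and 29.9 CPM under isotype and at 72.1 and 85.1 CPM under CPI in reactions 1 and 2. Gbp4 went from 15.7 and 15.6 CPM to 43.4 and 56.0 CPM. In both genes each CPI value lay above each isotype value. Here and below, such separation of so few values is given without the share of all genes showing it, so it is descriptive only. The edgeR differences were 1.36 for Igtp (SE 0.21, adjusted p = 0.0057) and 1.47 for Gbp4 (SE 0.18, adjusted p = 0.0021).

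Gbp2, a guanylate-binding protein that helps lyse pathogen vacuoles, was at 97.9 and 108 CPM under isotype and at 216 and 169 CPM under CPI in marker-negative barcodes (0.71, SE 0.15, adjusted p = 0.024). Gbp3 was at 19.9 and 22.1 CPM against 45.4 and 44.8 CPM (0.91, SE 0.18, adjusted p = 0.017), and Gbp7, linked to oxidase assembly on vacuoles, at 21.8 and 22.1 CPM against 54.3 and 45.9 CPM (1.00, SE 0.16, adjusted p = 0.0059). For these 3 genes the isotype and CPI values did not overlap. How many of all genes separated in this way is not given, so this is descriptive only. Gbp6 (1.29, adjusted p = 0.030) and Gbp8 (1.18, adjusted p = 0.013) completed the 7 called by edgeR. Irgm1, a regulator that guards self membranes from the other GTPases, was at 22.3 and 25.5 CPM under isotype and at 63.2 and 38.1 CPM under CPI, with a difference of 0.90 (adjusted p = 0.056) that passed with reaction as a block (adjusted p = 0.00099, in a fit that called 18.5% of genes). Gbp5 (0.42) and Gbp9 (0.10) were not called in either fit.

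In macrophage-like barcodes fewer members passed the CPI comparison: 2 of 10, where 16.7% of 8447 genes were called. The members' share was thus near that of all genes. Gbp6 was at 9.88 and 11.4 CPM under isotype and at 26.2 and 37.3 CPM under CPI (1.57, SE 0.46, adjusted p = 0.020). Gbp4 was at 17.1 and 13.4 CPM against 29.99 and 41.02 CPM (1.23, SE 0.38, adjusted p = 0.030). CPI values were above isotype values in both genes, yet they rest on 7 and 10 UMIs of Gbp6 and on 8 and 11 UMIs of Gbp4. Gbp2 stood at 77.1 and 71.3 CPM against 127 and 101 CPM (0.62, adjusted p = 0.052, and 0.022 with reaction as a block, where 22.8% of genes were called). Gbp3 pointed the other way, from 31.1 and 29.7 CPM to 18.7 and 7.46 CPM, without passing the edgeR test (−1.22, SE 0.54, adjusted p = 0.13), and Igtp (−0.18) and Irgm1 (−0.28) were near 0. The median over the 10 members was 0.54 against −0.030 over all genes. By level within a reaction, 5 members were higher under CPI in both reactions, 2 were lower in both and 3 were mixed.

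The CPI effect was then compared between both classes in 1 fit over their 16 sums, a test added after the values were seen. Of the 10 members, Gbp3 differed: its CPI effect was lower in macrophage-like than in marker-negative barcodes by a log2 difference of −2.16 (SE 0.54, edgeR adjusted p = 0.030, where 3.71% of 13747 genes were called). Igtp missed the threshold (−1.57, adjusted p = 0.052) and passed with reaction as a block (adjusted p = 0.040, where 5.99% of genes were called). For the remaining 8 members a class difference in the CPI effect was not detected.

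Other values moved with CPI in these barcodes. Macrophage-like barcodes under CPI had lower depth (median 1743 and 1986 UMIs against 3016 and 3765.5 under isotype), a lower summed macrophage-marker level (9500 and 9920 CPM against 13082 and 15891) and a higher summed T cell-marker level (33.7 and 14.9 CPM against 2.80 and 1.74). Rhox5, abundant in marker-negative barcodes, was found in macrophage-like barcodes at 20.6 to 93.7 CPM over the 8 sums. In marker-negative barcodes Col1a1 was at 79.0 and 313 CPM under CPI against 19.1 and 18.3 CPM under isotype, and Rhox5 at 350.5 and 378 CPM against 481 and 517 CPM, at median depths of 17976 and 18000.0 against 16959 and 22172.5 UMIs. The part of these differences in the GTPase values was not tested. The study's own limit of fewer than 2500 genes per barcode was not part of the main fits here. Most marker-negative barcodes lay above it, with a median of 3857 and 4367.5 genes under isotype. Keeping only barcodes below that limit left 13 and 12 marker-negative CPI barcodes with 25 and 4 UMIs of the family. Of the 7 called marker-negative differences 5 then had the opposite sign, Gbp7 kept its sign without passing and Gbp6 could not be fitted. Leaving out CPI reaction 1 left 3 of the 9 calls over both classes, and leaving out CPI reaction 2 left 2, each time with the lone CPI sum assumed to vary like the others.

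**Figure D3:**
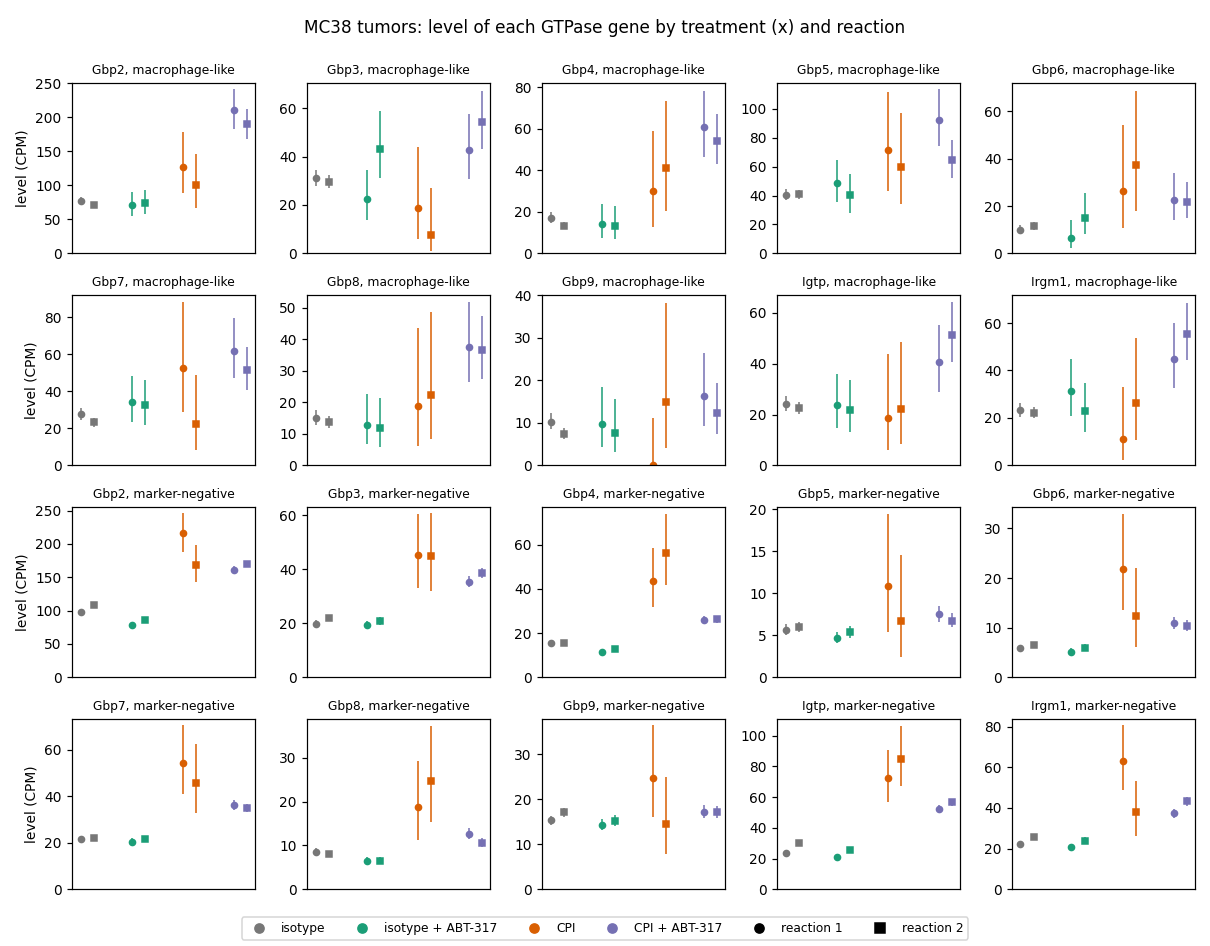
Level of each GTPase gene (CPM, y) in MC38 macrophage-like (upper 10 panels) and marker-negative (lower 10 panels) barcodes, with treatments side by side in color, reactions by symbol and exact Poisson 95% intervals. The CPI intervals are wide because the sums are small; in marker-negative barcodes Igtp lies at 72.1 and 85.1 CPM under CPI and at 23.5 and 29.9 CPM under isotype.

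CPI + ABT-317 was compared with CPI to ask what JAK1 inhibition on day 12 did to the family on top of CPI; this comparison uses the same CPI sums as the one above. In macrophage-like barcodes 9 of 10 members had higher fitted levels with ABT-317, and 3 passed the edgeR test, where 10.9% of genes were called. By level within a reaction, 8 were higher in both reactions, 1 was lower in both and 1 was mixed. The share of all genes with these directions is not given. The summed level was 365 ± 14.6 CPM under CPI and 610 ± 27.3 CPM under CPI + ABT-317 (SD, n = 2). Gbp2 rose from 127 and 101 CPM to 210 and 190 CPM (0.79, SE 0.21, adjusted p = 0.015). Gbp3 rose from 18.7 and 7.46 CPM to 42.6 and 54.1 CPM (1.90, adjusted p = 0.019), and Irgm1 from 11.2 and 26.1 CPM to 44.7 and 55.4 CPM (1.43, SE 0.43, adjusted p = 0.034). On the CPI side these values rest on 34 and 27 UMIs of Gbp2, 5 and 2 of Gbp3 and 3 and 7 of Irgm1. The values of these 3 genes did not overlap between treatments, which is given without the share of all genes so separated. Igtp, at 18.7 and 22.4 CPM against 40.6 and 51.5 CPM, missed the threshold (1.18, adjusted p = 0.067) and passed with reaction as a block (adjusted p = 0.041, where 16.6% of genes were called). The other members called higher by CPI in this class, Gbp4 (0.67) and Gbp6 (−0.55), were not called here. Depth and markers moved with this comparison too: median UMIs were 1743 and 1986 under CPI against 3476.5 and 4394 under CPI + ABT-317, the summed macrophage-marker level was 9500.03 and 9920 CPM against 12668 and 16524 CPM, and C1qa was at 2369 and 2409 CPM against 3341 and 4785 CPM. Their part in the GTPase values was not tested.

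In marker-negative barcodes all 10 fitted differences were below 0 and none was called by edgeR, against 3.67% of genes (2549 genes at an unadjusted p under 0.05). DESeq2 called 1, Gbp4, as lower. By level within a reaction, 6 members were lower with ABT-317 in both reactions and 4 were mixed. The share of all genes with these directions is not given. The summed level was 405 ± 12.6 CPM under CPI + ABT-317. Depth and markers differed here too. Col1a1 was at 78.98 and 313 CPM under CPI against 14.1 and 10.97 CPM under CPI + ABT-317. Rhox5 was at 350.5 and 378 CPM against 460 and 486 CPM. Median UMIs were 17976 and 18000 against 19787.5 and 27651.5. Median fibroblast-marker UMIs per barcode went the other way from Col1a1, at 9.5 and 14 against 14 and 20. The part of these differences in the members' values was not tested. Gbp4 was at 43.4 and 56.0 CPM under CPI and at 25.8 and 26.2 CPM under CPI + ABT-317 (−0.73, SE 0.18, adjusted p = 0.063), a difference called with reaction as a block (adjusted p = 0.0036, where 13.7% of genes were called). Gbp8 was at 18.8 and 24.6 CPM against 12.6 and 10.6 CPM (−0.70, adjusted p = 0.12), while the fitted differences were −0.023 for Gbp2, −0.086 for Gbp3 and −0.014 for Gbp9. The effect of ABT-317 on top of CPI was not called as different between the classes for any member in the joint edgeR fit (1.56% of genes called, 1681 at an unadjusted p under 0.05). The smallest adjusted p was that of Gbp4 (1.46 higher in macrophage-like barcodes, adjusted p = 0.051), and with reaction as a block Gbp3 (2.04) and Gbp4 (1.44) passed, where 2.92% of genes did.

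The 3 macrophage-like calls depend on the CPI sums of 133 and 116 barcodes. None remained when either CPI reaction was left out, with a stricter marker gate, or when barcodes were given to their leading hashtag, and 1 remained without CPI + ABT-317 reaction 2; the direction was kept in each case.

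The 2 arms with ABT-317, which share no sums with the CPI against isotype comparison and hold more CPI barcodes, were compared as well. This contrast was added after the values were seen. All 4 treatments of a class were fitted together, so its spread and p-values also rest on the CPI and isotype sums. It is therefore not an independent repeat of the CPI against isotype test. All 10 members were higher under CPI + ABT-317 than under isotype + ABT-317 in both reactions of both classes. The share of all genes higher in both reactions is not given. By edgeR 4 passed in macrophage-like barcodes (1.94% of genes called) and 4 in marker-negative barcodes (0.347%), and with reaction as a block 7 and 9 passed, where that fit called 5.75% and 24.4% of genes. In macrophage-like barcodes Gbp4 was at 14.0 and 13.0 CPM under isotype + ABT-317 and at 60.9 and 54.1 CPM under CPI + ABT-317 (2.12, SE 0.30, adjusted p = 0.00013). Gbp8 was at 12.9 and 11.9 CPM against 37.6 and 36.5 CPM (1.61, SE 0.32, adjusted p = 0.0047). Gbp2 differed by 1.497 (adjusted p = 1.7e-05) and Igtp by 1.09 (adjusted p = 0.033). Each of these 4 genes was separated between the arms by more than the gap between reactions, again without the share of all genes so separated.

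In marker-negative barcodes of the same arms, Igtp was at 20.8 and 25.6 CPM under isotype + ABT-317 and at 52.1 and 56.5 CPM under CPI + ABT-317 (1.18, SE 0.18, adjusted p = 0.045). Gbp4 was at 11.5 and 13.0 CPM against 25.8 and 26.2 CPM (1.05, SE 0.14, adjusted p = 0.027), and Gbp2 (0.97, adjusted p = 0.036) and Gbp3 (0.85, adjusted p = 0.046) also passed. These 4 calls were sensitive to single sums: of 8 fits that each left out 1 sum, Gbp3 passed in 0, and Gbp2, Gbp4 and Igtp in 2 (those without an isotype sum), with the direction kept in all. In macrophage-like barcodes Gbp2 and Gbp4 passed in 8, Gbp8 in 6 and Igtp in 5 of such fits. The sums here rest on 1534 to 1907 and on 1392 and 1480 barcodes. The marker-negative levels under CPI + ABT-317 lay between those of CPI and isotype + ABT-317 for Igtp and Gbp4.

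Isotype + ABT-317 was compared with isotype to see the inhibitor without CPI. No member was called by edgeR or by DESeq2 in either class; 0.071% of all genes were called in macrophage-like and 0.00667% in marker-negative barcodes, with 368 and 633 genes at an unadjusted p under 0.05. The summed level was 266 ± 14.6 against 278 ± 5.23 CPM in macrophage-like barcodes and 249 ± 17.5 against 213 ± 15.7 CPM in marker-negative barcodes. Macrophage-like barcodes had 2 members higher with ABT-317 in both reactions, 3 lower in both and 5 mixed. In marker-negative barcodes, all 10 members were lower with ABT-317 in both reactions, given without the share of all genes that were. Gbp2, at 97.9 and 108 CPM against 78.4 and 86.2 CPM, was called with reaction as a block (−0.28, SE 0.04, adjusted p = 5.2e-05), as were Gbp4 (−0.31), Gbp8 (−0.31) and Igtp (−0.16), in a fit that called 19% of genes; in macrophage-like barcodes that fit called no member and 1.5% of genes (810 at an unadjusted p under 0.05).

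The interaction of CPI and ABT-317 was called for no member by edgeR or DESeq2 (5.85% of genes called in macrophage-like and 1.15% in marker-negative barcodes by edgeR, with 1573 and 1911 genes at an unadjusted p under 0.05). With reaction as a block it was called in macrophage-like barcodes for Gbp2 (0.88, adjusted p = 0.0085) and Gbp3 (1.82, adjusted p = 0.022), where that fit called 12% of genes. In simulated counts of this design, 12% of 2-fold and 61.5% of 4-fold changes were recovered for CPI against isotype in macrophage-like sums, and 28.5% and 62.5% in marker-negative sums, so that uncalled differences of this size cannot be read as absent.

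**Figure D4:**
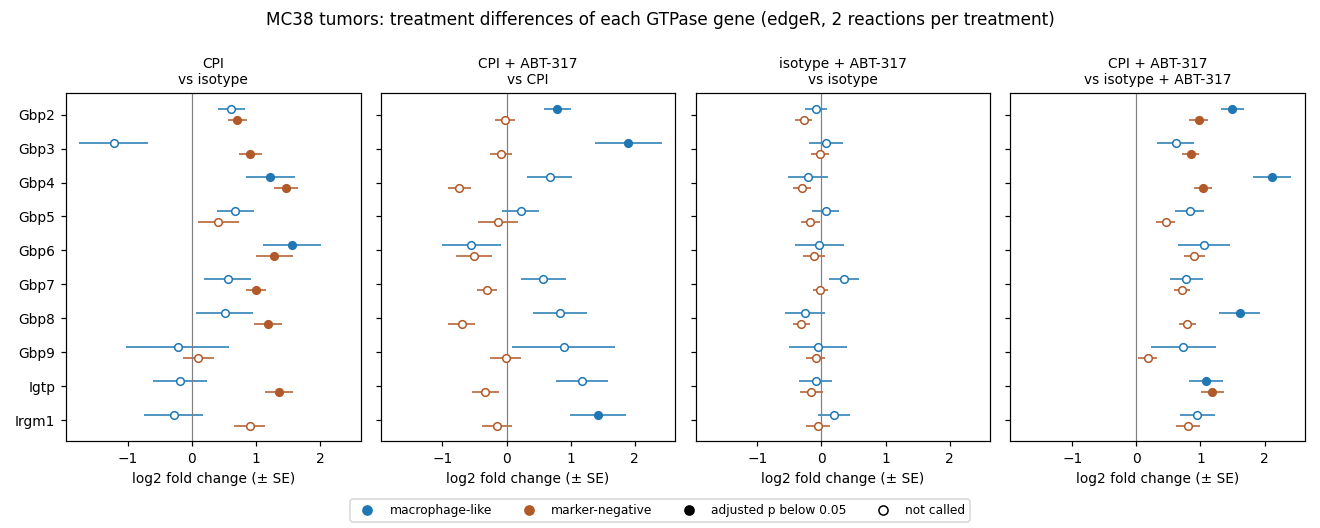
Log2 fold change with its SE (x) for each GTPase gene (y) in 4 treatment comparisons of MC38 barcodes; blue is macrophage-like, brown is marker-negative, and filled points passed an edgeR adjusted p of 0.05. For CPI + ABT-317 against CPI, 9 of 10 macrophage-like points lie above 0 and all marker-negative points below 0, and for CPI + ABT-317 against isotype + ABT-317 all 20 lie above 0. For CPI + ABT-317 against CPI, 8 macrophage-like members were higher and 6 marker-negative members lower in both reactions.

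The rest of the IFN-γ pathway was followed through 29 listed genes. In marker-negative barcodes under CPI against isotype, 7 of the 27 tested rose, among them the checkpoint ligand Cd274 (2.19), the class I transactivator Nlrc5 (2.09), the chemokines Cxcl9 (1.93) and Cxcl10 (1.31), the factor Irf1 (1.196) and the feedback inhibitor Socs1 (1.04), and none fell. The median over the list was 0.23, against −0.069 over all genes, of which 7.09% were called. Of 9 tested relatives in the wider GTPase family 4 rose, among them Tgtp1 (3.45), Tgtp2 (1.72) and Irgm2 (1.47). Of the 14 type I interferon-stimulated genes tested, edgeR called none (3323 of all genes had an unadjusted p under 0.05) and DESeq2 called 1 higher and 1 lower, with an edgeR median of −0.34.

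In macrophage-like barcodes under CPI, 11 of 27 pathway genes rose and 3 fell (median 0.23, against −0.030 over all genes, 16.7% of them called). Those that rose included Socs1 (1.75), Irf1 (1.48), the class II genes H2-Ab1 (1.14) and H2-Aa (1.08), their chaperone Cd74 (0.85) and the kinase Jak1 (1.11), while Psmb8 (−0.89), an immunoproteasome subunit, Cxcl10 (−0.78) and Socs3 (−0.55) fell. Of 13 type I genes tested, 7 fell, among them Ifit2 (−3.12), Irf7 (−1.53), Rsad2 (−1.23) and Isg15 (−0.72), and the median was −1.23. With ABT-317 added to CPI, 6 of the 27 pathway genes rose (all-gene median 0.011, 10.9% called), among them Cxcl9 (1.48), Tap1 (1.43), Psmb8 (1.15), Psmb9 (1.10) and Cxcl10 (0.86), whereas Jak1 (−1.11) and Ifngr1 (−0.87) fell. Of the 13 type I genes 7 rose, among them Ifit2 (2.92) and Irf7 (1.98), with a median of 1.43; both comparisons of this class use the same CPI sums. In marker-negative barcodes, Irf1 (−0.82) was the pathway gene that fell and none rose by edgeR, where 3.67% of genes were called. Between the arms with ABT-317, 11 of 27 pathway genes were higher with CPI in macrophage-like barcodes, including Socs1 (2.63) and Cxcl9 (1.92), and 1 in marker-negative barcodes, Cxcl9 (1.48), where 1.94% and 0.347% of genes were called. Ifng itself was at 431 and 402 CPM in CD8 T-like barcodes under CPI; under isotype it was at 311 and 3183 CPM on 5 and 16 UMIs of 5 and 4 barcodes, too few for a comparison. In macrophage-like barcodes it was at 15.0 CPM (4 UMIs) and 0 under CPI and at 0.087 and 0.060 CPM (1 UMI each) under isotype.

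Marker-negative barcodes were not uniform. When those of a reaction were divided into 4 bins of equal size, over all its barcodes with any number of hashtags, by their share of fibroblast-marker UMIs, the summed GTPase level under isotype went from 80.3 and 90.6 CPM in the lowest bin through 157 and 157 and then 293 and 329 to 443 and 505 CPM in the highest. The same order was seen under isotype + ABT-317 (76.4 and 77.3 CPM up to 472 and 553 CPM) and under CPI + ABT-317 (226 and 208 CPM up to 930 and 1022 CPM). CPI bins, with 5 to 22 barcodes each, went from 415 and 259 CPM to 1079 and 1102 CPM, with the third bin of reaction 2 below the second. In every bin of both reactions CPI + ABT-317 lay above isotype + ABT-317. Depth fell along the bins (median 23373 to 13484.5 UMIs for isotype in reaction 1), its part in the order was not tested, and the bins were added after the values were seen.

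**Figure D5:**
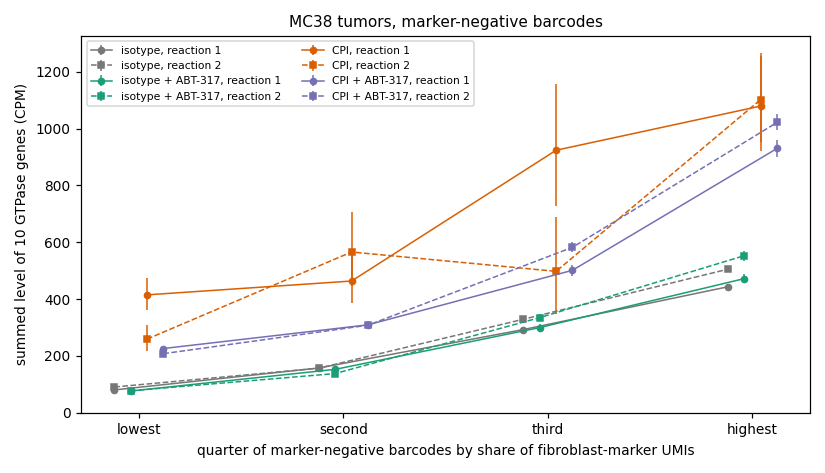
Summed level of the 10 GTPase genes (CPM, y) in 4 bins of MC38 marker-negative barcodes ordered by share of fibroblast-marker UMIs (x), by treatment (color) and reaction (symbol and line), with exact Poisson 95% intervals. Isotype runs from 80.3 and 90.6 CPM to 443 and 505 CPM, and CPI + ABT-317 from 226 and 208 CPM to 930 and 1022 CPM.

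Over 21 class-by-treatment points, 8756 genes had a mean of at least 10 CPM. The members and the 11 listed genes of the wider GTPase family were left out of the ranking beforehand. Of the rest, the genes whose levels were most like the mean of the family were Osbp (Pearson r = 0.79), Ccdc91, Spaca6, S100pbp, Gosr1, Gdpd5, Kif5b, Dmtf1, Nipbl and Ascc3 (0.74). Neither IFN-γ pathway nor type I genes were among them. The points share reactions and differ widely in depth, and the members' own correlations with their mean ran from 0.41 (Gbp5) to 0.85 (Gbp6 and Gbp8).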

How the data were processed

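Per the labels and methods, cells were captured with a 10x 5′ v2 kit. The authors deposited 1 count matrix per reaction (UMIs of each gene in each barcode, neither normalized nor pooled), made with Cell Ranger. The file headers give version 7.1.0 for TDLN and 8.0.1 for MC38, the submitters' processing notes give 3.1.0, and the methods give major versions only. The labels and methods name GRCm38, but the TDLN matrices list 32285 genes and the MC38 matrices 33696, so 1 annotation did not serve both, and the annotation of MC38 is not given in the sources used here. Barcodes with at least 200 genes and under 10% mitochondrial UMIs were kept. Hashtag presence was called from a mixture of 2 components per hashtag, and MC38 barcodes with exactly 1 hashtag took its treatment. Classes were gated on marker genes, with thresholds set after the data were seen. No doublet caller was run. Barcodes matching several gates were left out of the classes. Those with several hashtags were left out of the treatment sums but kept in levels and fits over all barcodes of a class.

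UMI counts were summed per class, treatment and reaction (at least 10 barcodes) and tested over all genes passing edgeR's filter with the quasi-likelihood test of edgeR 4.0.16 (TMM scaling, R 4.3.3), adjusted by Benjamini-Hochberg, with a threshold of 0.05. Levels are counts per 1000000 UMIs (CPM) of the deposited counts, a count of 0 allowing 3 counts. Alternatives were DESeq2 1.42.0, library sizes alone, no filter, stricter gates, other barcode minimums, a leading-hashtag rule, fewer than 2500 genes per barcode, and reaction as a block. Class tests were also run without each reaction, and treatment tests without each treatment sum of 1 reaction. The sums of all treatments in a reaction come from the same physical reaction, which is the pairing; same-reaction deviations correlated at 0.0949 to 0.396 (macrophage-like), 0.0426 to 0.541 (marker-negative) and 0.0219 to 0.107 (TDLN). The test was checked on simulated counts. The 10 members and the gene lists were chosen with earlier results of these data known. Named genes outside the 10 come from these lists or are the 10 most like the family's mean by Pearson correlation of log2(CPM + 1). Listed relatives of the wider family were left out of that ranking. The antibody tag reference was not used. Not every gene counted in the lists is reported by name here.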

Additional observations from a re-analysis of the deposited data

Results flagged for a closer look

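Gbp3 was picked out because its CPI effect differed between classes by a test of the difference itself. In macrophage-like barcodes it was at 31.1 and 29.7 CPM under isotype and at 18.7 and 7.46 CPM under CPI, on 5 and 2 UMIs, and in marker-negative barcodes at 19.9 and 22.1 CPM against 45.4 and 44.8 CPM. The macrophage-like effect minus the marker-negative effect was −2.16 on the log2 scale (SE 0.54, edgeR adjusted p = 0.030), and −2.15 with reaction as a block (adjusted p = 0.015). Depth and marker levels of the CPI barcodes differed as well, and their part in the difference was not tested.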

How the results depend on the processing

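Over all alternatives, 33 calls gave 476 comparisons: 343 were called again, 127 kept the direction without passing and 6 changed direction. For the treatment calls, the minimums of 30 and of 5 barcodes per sum refitted the same sums, since the smallest held 45 barcodes. Those repeats were fixed in advance, so the 343 do not measure stability. Members called between MC38 classes numbered 5; they were 3 with DESeq2, 3 with library sizes alone, 8 with a stricter gate, 10 with at least 30 barcodes per sum, and, added after the data were seen, 8 with all barcodes and 2 with the neutrophil-like class included; leaving out a reaction gave 1 to 4. For TDLN the 5 became 1 with DESeq2 and 3 with a stricter gate, and 1 to 5 when a reaction was left out. For the treatment comparisons, leaving out meant dropping 1 treatment sum of 1 reaction. The 9 pairs of CPI against isotype became 3 with fewer than 2500 genes per barcode and 5 with the leading hashtag. Fewer of the 9 were kept when a CPI or isotype sum was dropped. The 3 pairs of CPI + ABT-317 against CPI became 5 with reaction as a block, 0 with a stricter gate and 0 with the leading hashtag. Fewer of the 3 were kept when 1 CPI sum, or the CPI + ABT-317 sum of reaction 2, was dropped. Isotype + ABT-317 against isotype went from 0 to 4 with the block. All counts in this paragraph are given without the share of all genes called under each alternative, so they describe the members' calls only. The interaction went from 0 to 2 without the filter, 2 with the block and 1 with fewer than 2500 genes. A call could also arise with 1 sum dropped. CPI + ABT-317 against isotype + ABT-317 went from 8 to 13 without the filter, 16 with the block, 3 with fewer than 2500 genes and 2 with the leading hashtag. Fewer of the 8 were kept whichever sum was dropped. Pairing by reaction through the block changed no call other than those given in the report. With fewer than 2500 genes per barcode, marker-negative CPI differences were −0.54 for Gbp2, −0.69 for Gbp3, −7.15 for Gbp4, −0.075 for Gbp8 and −2.61 for Igtp, on 13 and 12 CPI barcodes; with all barcodes, the fitted difference of Gbp4 in fibroblast-like barcodes was 0.48, against a mean of classes that then held neutrophil-like barcodes at 0 UMIs, while its level stayed below those of macrophage-like and marker-negative barcodes. That fit also took in barcodes with no or several hashtags. The part of either change was not tested. In marker-negative barcodes, library sizes alone moved the all-gene median of CPI against isotype from −0.069 to 0.12, and the genes called from 633 higher and 430 lower to 903 and 213; the members' median was then 1.15. Depth limits the CPI sums, with 100 and 95 family UMIs in macrophage-like barcodes.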
